A study of Drosophila melanogaster with 2 samples.

Results

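The genes examined were 8 regulators of the mesoderm and heart of the fly embryo: twi, tin, zfh1, Mef2, bin, bap, htl and lmd. They were taken by symbol from the 13945 protein-coding genes annotated on the 6 main chromosome arms. No cut on a measured value was used, but earlier results of these data were known when the genes were chosen. The data are from chromatin immunoprecipitation with an anti-GFP antibody in whole Drosophila melanogaster embryos of the strain gt-GFP, collected 0 to 18 h after egg laying as the labels give their age. The flies carry a transgene for a fusion of Giant, a basic leucine zipper repressor, with eGFP. There were 2 biological replicates of this single group and no second genotype, treatment or stage. Each collection pooled all tissues and the whole age range, and the labels do not say in which cells the fusion was present, so a weak site used in many cells and a strong site used in few cells cannot be told apart. A peak was counted for a gene when its summit lay in the annotated gene body or within 10000 bp of it. By this rule 7 of the 1825 main-arm peaks of the authors' pooled thresholded list fell at 5 of the 8 genes.

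The fly mesoderm is set up on the ventral side of the embryo by Twist, a basic helix-loop-helix activator, and its cells then spread under the ectoderm with the help of Heartless, a fibroblast growth factor receptor encoded by htl. Tinman, a homeodomain factor, is required for the heart and dorsal mesoderm, and the homeodomain factor Bagpipe and the forkhead factor Biniou act in the visceral mesoderm that forms the gut muscle. The zinc finger and homeodomain repressor Zfh1 acts in several mesodermal derivatives, the MADS-box factor Mef2 drives muscle differentiation, and the zinc finger factor Lame duck, encoded by lmd, is needed in fusion-competent myoblasts.

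Of the 7 peaks, 5 were found in both replicates' own lists, 1 at tin, 2 at zfh1 and 2 at Mef2. The summit sequences at tin and zfh1 are shown as examples of these, and those at Mef2 are described by position only. Each runs 5′ to 3′ on the forward strand of the Release 6 genome (dm6) on arm 3R, 100 bp to each side of the pooled summit. Capitals mark CAGTG on either strand (read CACTG on the forward strand) and the Twist E-boxes CATATG and CACATG on either strand.
tin promoter, chr3R:21378649-21378849: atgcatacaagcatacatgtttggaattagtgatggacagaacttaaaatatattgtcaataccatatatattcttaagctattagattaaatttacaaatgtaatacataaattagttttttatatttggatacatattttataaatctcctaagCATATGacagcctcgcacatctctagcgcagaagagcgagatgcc
zfh1 intron, chr3R:30781693-30781893: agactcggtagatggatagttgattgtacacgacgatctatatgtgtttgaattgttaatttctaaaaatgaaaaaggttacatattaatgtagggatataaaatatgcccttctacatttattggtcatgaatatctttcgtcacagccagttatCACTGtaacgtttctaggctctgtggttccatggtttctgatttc
wts intron downstream of zfh1, chr3R:30796855-30797055: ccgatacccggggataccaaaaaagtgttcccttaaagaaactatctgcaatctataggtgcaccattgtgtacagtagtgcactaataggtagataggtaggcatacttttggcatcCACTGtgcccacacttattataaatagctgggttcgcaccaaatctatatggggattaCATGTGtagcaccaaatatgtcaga

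The tin window was rich in A and T, with 29.9% GC, against a median of 36.8% over the 1825 pooled summits. It held no CAGTG, and its CATATG began 56 bp downstream of the summit. The zfh1 intronic window, with 34.3% GC, held CAGTG on the reverse strand from 56 to 60 bp after the summit. In the window downstream of zfh1, with 41.8% GC, the longer ACAGTGG lay on the reverse strand from 17 to 23 bp after the summit.

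Across the series, the pooled, replicate 1 and replicate 2 thresholded lists held 1825, 1163 and 1100 main-arm peaks, and the full ranked lists held 145186, 104826 and 127147 main-arm regions. Signal is the authors' own value for a peak; its scaling is unknown, so peaks were ranked within a list and signals were not compared between lists. The IDR, or irreproducible discovery rate, is given here as its global value. It estimates the share of regions not repeated between paired peak sets, among all regions that scored at least as well. In the pooled thresholded list it reached at most 0.999%. Read depth is unknown because the files list regions without read counts.

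Of the 8 genes, twi, tin, zfh1, Mef2 and bin had at least 1 pooled peak (62.5%), and bap, htl and lmd had none. By the same rule 34.9% of all protein-coding genes had a pooled peak. The windows of the 8 genes were longer, from 21570 to 82952 bp with a median of 26630.5 bp, against a median of 22166 bp over all genes. The 3 genes with windows over 40 kb (twi, zfh1 and Mef2) all had a peak, as did 47.4% of the 1013 genes with windows of that length. Between 22 and 25 kb, tin and bin both had a peak, as did 37.2% of 3943 genes. Between 25 and 40 kb neither htl nor lmd had one, against 39.6% of 2469 genes, and under 22 kb bap had none, against 29.8% of 6520 genes. Mef2 and zfh1 had 2 pooled peaks each, and 11.2% of all genes had 2 or more. Only twi, zfh1 and Mef2 had a pooled summit within the gene body itself, as did 5.76% of all genes. Their bodies, of 62952, 23277 and 45363 bp, are the longest of the 8, and the 5.76% was not matched for body length.

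The count differed between the replicates' own lists. Replicate 1 had a summit at 3 of the 8 genes (tin, zfh1 and Mef2), where 27.3% of all genes had one. Replicate 2 had a summit at 4 (the same genes and bin), where 24.1% of all genes had one. In the authors' conservative list, twi, tin, zfh1 and Mef2 had a summit, and 31.1% of all genes had one. Of the 7 pooled peaks, 5 overlapped a thresholded peak of both replicates, 1 (bin) overlapped replicate 2 alone and 1 (twi) overlapped neither. Over all pooled peaks, 41.2% overlapped both.

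**Figure D1:**
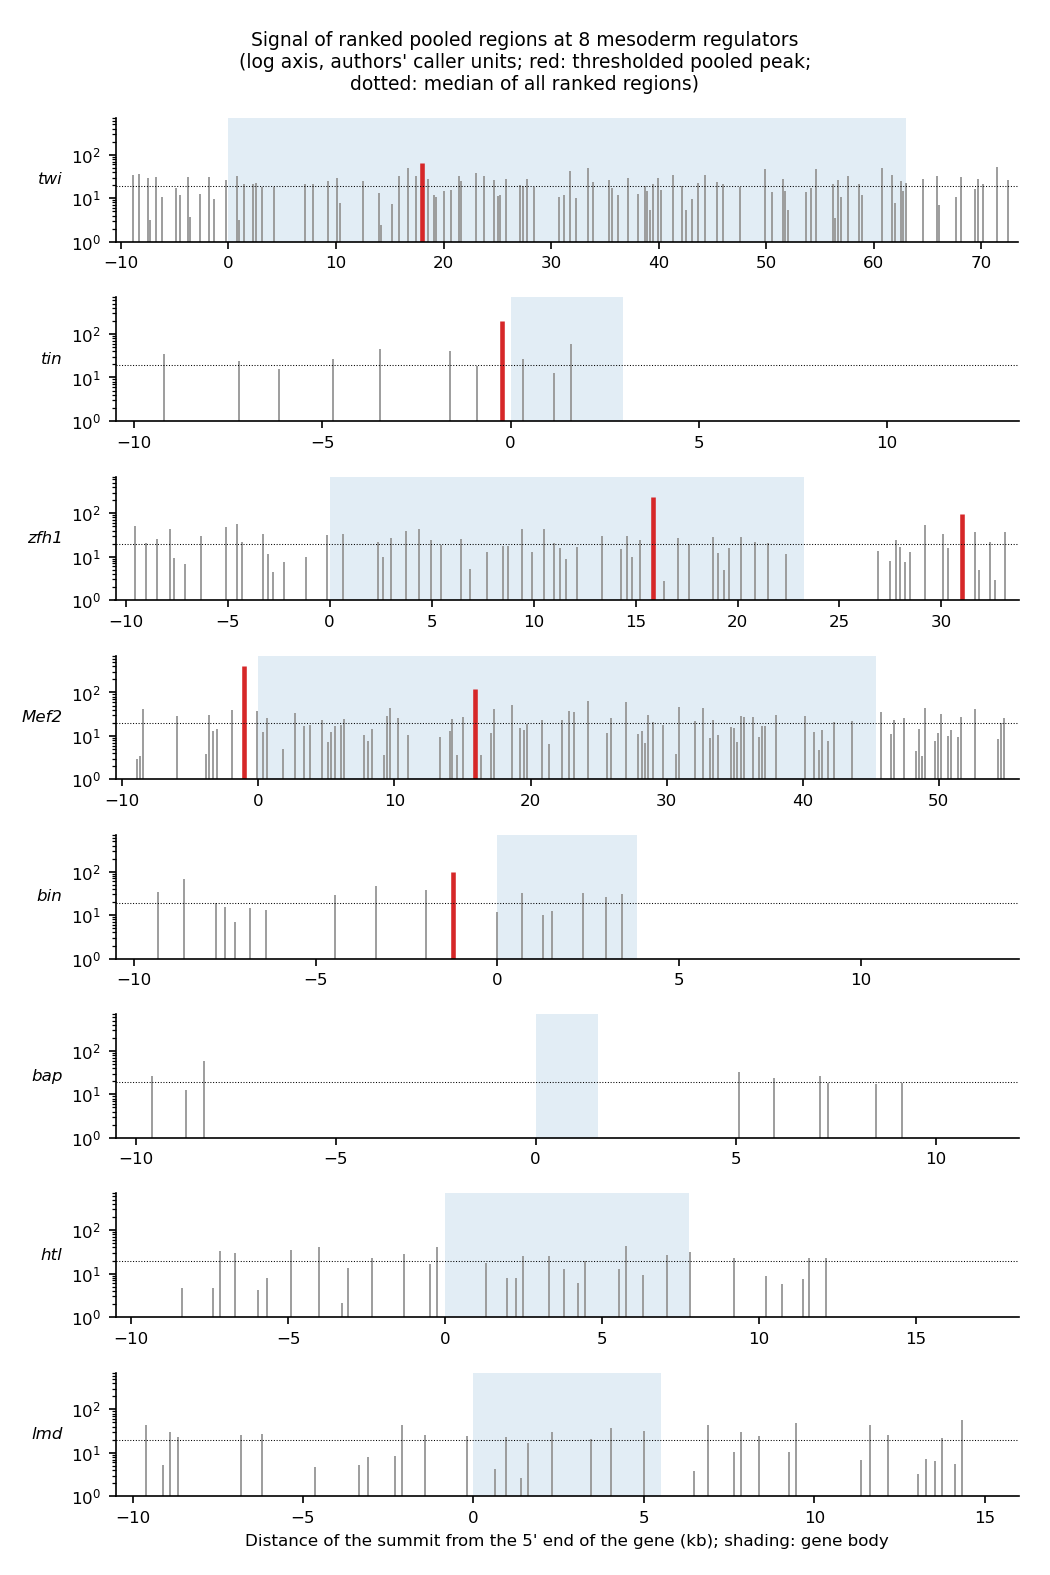
Signal of every ranked pooled region (authors' caller units, log axis) against the distance of its summit from the 5′ end of each gene in kb, for the gene body (shaded) and 10 kb to each side; red lines are thresholded pooled peaks and the dotted line is the median of all ranked regions. The red lines at tin, at Mef2 and in intron 3 of zfh1 stand well above the grey regions around them, the red line at twi is close in height to its neighbours, and bap, htl and lmd have grey lines only.

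twi, whose product specifies the mesoderm, carried the weakest of the peaks. Its annotated body (FBgn0003900, chr2R:22985374-23048325, forward strand) is long because a single transcript starts far upstream, with a second intron of 60401 bp. The peak lay in that intron (chr2R:23003184-23003539), 17988 bp downstream of the distal start site and 42746 bp upstream of the nearer of the proximal start sites. The nearest protein-coding start site was that of CG9896, at 4478 bp. Its pooled signal was 66.2, rank 1525 of 1825, with an IDR of 0.931%, just inside the threshold. The same place was a ranked region of both replicates, with a signal of 33.4 (rank 1455 of 104826, IDR 21.4%) in replicate 1 and 37.8 (rank 2523 of 127147, IDR 11.6%) in replicate 2. At the proximal twi promoter, 6 bp from the start site, the ranked pooled list had a region of signal 51.0 and rank 4228 of 145186. Its IDR of 2.5% was outside the threshold. That promoter region had a signal of 22.7 in replicate 1 and 28.1 in replicate 2. It ranked 4798 of 104826 in replicate 1 and 9174 of 127147 in replicate 2. The intron peak thus lay just inside the limit of the pooled list, and the promoter region lay outside it.

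htl, which encodes the receptor for the mesodermal growth factors Thisbe and Pyramus, had no thresholded peak in any list within its window (FBgn0010389, chr3R:18045216-18052984, reverse strand). The nearest pooled summit was 22264 bp away, with a signal of 64.2, and the nearest summits of replicates 1 and 2 were 72273 and 72244 bp away. The strongest of its 33 ranked regions lay in the coding sequence, with a signal of 44.1, rank 7908 and an IDR of 25.3%. That value was higher than the strongest region of 21.2% of all genes with a ranked region. A region 251 bp upstream of the start site had a signal of 41.9 and an IDR of 61.8%, at rank 43464 in replicate 1 and rank 18510 in replicate 2.

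tin, the heart determinant, carried a promoter peak (chr3R:21378571-21378926) whose summit lay 228 bp upstream of its only start site (FBgn0004110, chr3R:21378977-21381970, forward strand). The pooled signal was 201, rank 230 of 1825, with an IDR of 0.0132%. In replicate 1 the peak had a signal of 58.9, rank 491 of 1163, and in replicate 2 a signal of 134, rank 164 of 1100. It thus stood higher in replicate 2 than in replicate 1, and the summits of the replicates lay 39 bp upstream and 4 bp downstream of the pooled one. The tin window held 11 ranked pooled regions, or 4.78 per 10 kb, against a median of 12.4 per 10 kb over all genes. In replicate 1 it held 14 regions, a density above that of 13.4% of genes. In replicate 2 it held 23 regions, a density above that of 39.7% of genes, so the low density was not seen there. The strongest other region lay in the tin coding sequence, 1615 bp from the start site, with a signal of 59.7 and an IDR of 5.93%. That region had a signal of 20.9 in replicate 1 and 29.2 in replicate 2.

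bap, the neighbour of tin on the same strand (FBgn0004862, chr3R:21388880-21390449), had no thresholded peak. The tin promoter summit lay 10131 bp from its start, just outside the window, so a window of 20000 bp would count it for bap as well. In the ranked pooled list no summit lay in the bap body, and the first summits were 8288 bp upstream and 3510 bp downstream. Replicate 1 also had no ranked summit in the body, while replicate 2 had 4. The strongest ranked region in the bap window was the one in the tin coding sequence. The strongest outside tin, downstream of bap, had a signal of 32.4, with 13.7 in replicate 1 and 18.1 in replicate 2, and an IDR of 64.1%.

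bin, which acts with bap in the visceral mesoderm, had an intergenic peak (chr3L:6989210-6989565) with its summit 1234 bp upstream of its start site (FBgn0045759, chr3L:6990622-6994447, forward strand). The pooled signal was 99.5, rank 821 of 1825, with an IDR of 0.22%. Replicate 2 had a thresholded peak there with a signal of 80.1, rank 459 of 1100. Replicate 1 had only a ranked region below its threshold, with a signal of 25.1, rank 3201 of 104826 and an IDR of 7.49%. The peak was absent from the conservative list. A region 8608 bp upstream of bin, nearer to Galphai, a G protein subunit gene, had a signal of 69.1, higher than that of the twi peak, but an IDR of 5.1% and so was not in the thresholded list. That region had a signal of 28.1 in replicate 1 and 31.1 in replicate 2.

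zfh1 (FBgn0004606, chr3R:30765926-30789202, forward strand) carried a peak in intron 3 of the 4 introns of its long transcripts (chr3R:30781719-30781825), only 107 bp wide, with the summit 1465 bp upstream of the internal start site and 15867 bp downstream of the distal one. The summit also lay within asRNA:CR45189, a noncoding gene on the opposite strand. The pooled signal was 231, rank 166 of 1825, with an IDR of 0.00723%. The signal was 100.2 in replicate 1, rank 178 of 1163, and 124 in replicate 2, rank 192 of 1100. The replicates thus placed this peak at nearly the same rank, and their summits lay 7 and 14 bp from the pooled one.

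A weaker zfh1 peak (chr3R:30796777-30797132) lay 7753 bp beyond the gene's 3′ end, in an intron of wts, which encodes the Warts kinase of the Hippo pathway. The wts start site, 9664 bp away, was the nearest of any protein-coding gene. The pooled signal was 94.8, rank 893 of 1825, with an IDR of 0.14%. It was 41.2 in replicate 1, rank 899 of 1163, and 62.9 in replicate 2, rank 702 of 1100. The summit of replicate 1 was 83 bp from the pooled summit and that of replicate 2 was 6 bp from it. The strongest zfh1 region below the threshold lay 4529 bp upstream of the gene, with a signal of 56.4 and an IDR of 8.07%, and also held ACAGTGG within 100 bp of its summit.

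Mef2 (FBgn0011656, chr2R:9913496-9958858, reverse strand) had the strongest peak in any of the 8 windows, at the promoter of a neighbour. This peak (chr2R:9959802-9960057) had its summit 149 bp upstream of a start site of Pal1, a gene on the opposite strand that encodes an enzyme of peptide amidation, and 1071 bp upstream of the distal Mef2 start site. The pooled signal was 400.0, rank 46 of 1825, with an IDR of 0.001%, the lowest the ranked list records. It was 135 in replicate 1, rank 89 of 1163, and 267 in replicate 2, rank 32 of 1100. The peak was therefore among the strongest in both replicates. Its summit lay within the annotated body of Pal1 (FBgn0283510, chr2R:9959549-9963853, forward strand) and outside that of Mef2, and it is counted for Mef2 through the window alone.

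The other Mef2 peak (chr2R:9942786-9943141) lay in the 5′ untranslated exon of an internal Mef2 transcript, 1800 bp downstream of its start site, and in the first intron of the longest transcripts. The pooled signal was 122, rank 576 of 1825, with an IDR of 0.0579%. Replicate 1 gave a signal of 90.1, rank 213 of 1163, and replicate 2 gave 48.1, rank 996 of 1100. Here the order of the replicates was opposite to that at tin: the Mef2 exon peak ranked above the tin peak in replicate 1 and far below it in replicate 2. The strongest Mef2 region below the threshold, in an intron 4984 bp upstream of a Mef2 start site, had a signal of 63.9 and an IDR of 6.85%.

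lmd, which acts upstream of Mef2 in myoblasts, had no thresholded peak in any list within its window (FBgn0039039, chr3R:23021222-23026713, reverse strand). It was the farthest of the 8 from a pooled peak, with the nearest summit 146833 bp away. The nearest summits of replicates 1 and 2 were 148958 and 170873 bp away. Its window held 37 ranked pooled regions, or 14.5 per 10 kb, the strongest of which had a signal of 57.9 and an IDR of 11.9%. That region lay 47 bp from the start site of CG6688 and ranked 8239 in replicate 1 and 4441 in replicate 2.

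**Figure D2:**
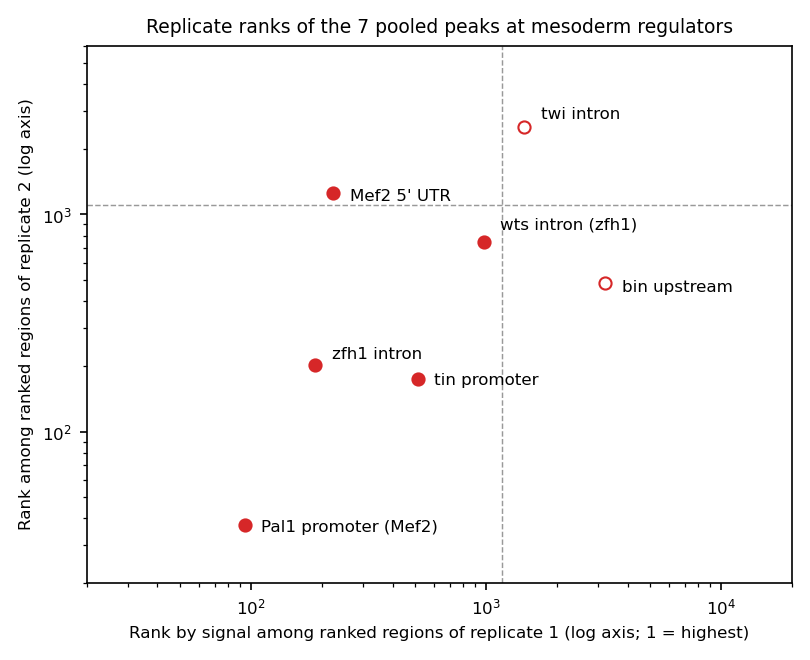
Rank by signal (log axes, 1 is the highest) of the region at each of the 7 pooled peaks among the ranked regions of replicate 1 (horizontal) and replicate 2 (vertical); filled points overlap a thresholded peak of both replicates, open points do not, and dashed lines give the number of main-arm peaks in each replicate's thresholded list. The Pal1 promoter, zfh1 intron and tin promoter points lie lowest, the bin point lies beyond the replicate 1 line, the Mef2 5′ UTR point lies just above the replicate 2 line although it passed that list's IDR, and the twi point lies beyond both lines.

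Within the pooled list the 7 peaks were spread over most of the range. Their median signal was 122, against 93.7 for all 1825 pooled peaks, and 6 of the 7 were above that median, the exception being twi. Of the 7, 2 lay at promoters, 3 in introns, 1 in a 5′ untranslated exon and 1 in intergenic sequence. Over all pooled peaks, 42.5% lay at promoters, 34.8% in introns, 0.548% in 5′ untranslated exons and 17.4% in intergenic sequence.

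**Figure D3:**
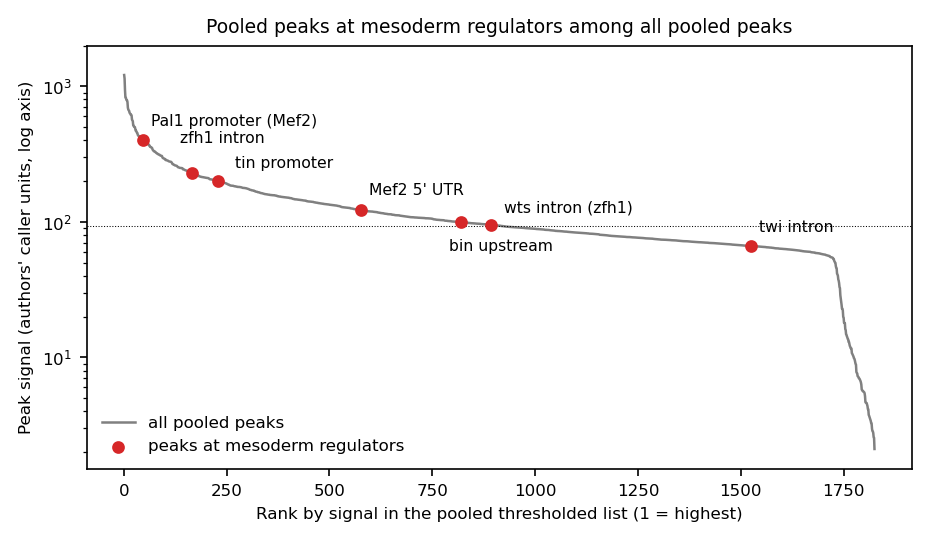
Peak signal (authors' caller units, log axis) against rank in the pooled thresholded list for all 1825 peaks (grey line), with the 7 peaks at mesoderm regulators in red and the median signal dotted. The peaks run from rank 46 at the Pal1 promoter beside Mef2 to rank 1525 in the twi intron, with 6 of 7 above the median.

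The strongest ranked region of each window was also set beside those of 13698 genes with a ranked region in their window. The strongest region at Mef2, the Pal1 promoter peak, exceeded that of 98.2% of genes, at zfh1 94.4%, at tin 92.5% and at bin 78.0%. The shares were 64.0% at twi, 57.2% at bap, 54.2% at lmd and 21.2% at htl. None of these shares was matched for window length, and the long Mef2 and zfh1 windows held 102 and 68 ranked regions. The shares at bap and lmd were lower in the replicates' own ranked lists, with 27.9% at bap and 24.9% at lmd in replicate 1, and 22.2% at bap and 50.5% at lmd in replicate 2. At bin the share was 58.5% in replicate 1, where the strongest region was another one, 8663 bp from the gene, and 86.1% in replicate 2. The median signal of the ranked regions in a window did not follow the order of the pooled shares. It was 27.8 at bin, 27.3 at tin, 23.6 at bap and 23.2 at lmd, and 21.2 at twi, 20.4 at zfh1, 17.7 at htl and 17.3 at Mef2, against 19.4 for all ranked regions. In the pooled list the 3 windows with the highest medians held the fewest regions per length: bap, tin and bin held 4.17, 4.78 and 7.55 regions per 10 kb, while Mef2 and zfh1 held 15.6 and 15.7. In replicate 2 this did not hold: the densities at bap, tin and bin were above those of 36.0%, 39.7% and 47.5% of genes, and the lowest of the 8 was at htl, above that of 31.2%. The order of the window medians also differed in the replicates, with bin higher than 98.5% of genes in replicate 1 and higher than 39.3% in replicate 2.

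Sequence motifs were counted on both strands in windows of 201 bp centred on the summits. CAGTG, which was frequent at the peaks of the series, was present at 3 of the 7 peaks (the twi intron and both zfh1 peaks), against 50.7% of all pooled peaks and 29.7% of 664860 windows of the same length tiling the main arms. ACAGTGG, which contains CAGTG, was present at 1 of 7, against 10.3% of pooled peaks and 2.35% of the tiling windows. CAGTGTA was present at none of the 7, against 7.95% of pooled peaks and 1.8% of tiling windows.

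The site bound by Giant, TTACGTAA with at most 1 mismatch, was at none of the 7 peaks, against 9.32% of pooled peaks and 6.93% of tiling windows. The DREF element TATCGATA, found at 2.63% of pooled peaks and 0.564% of tiling windows, and the Zelda site CAGGTAG, found at 1.1% and 1.09%, were also at none.

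Sites of the mesodermal factors themselves were sought as well. The general E-box CANNTG, a set that includes the specific E-boxes named here, was at 5 of 7 peaks, against 62.5% of pooled peaks and 63.1% of tiling windows. CATATG was at 1 of 7 (tin), against 6.58% of pooled peaks and 5.49% of tiling windows. CACATG was also at 1 of 7 (downstream of zfh1), against 8.88% and 8.89%, and CAGGTG, a site of the ZEB family to which Zfh1 is related, was at 1 of 7 (twi), against 6.52% and 7.87%.

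TNAAGTG, which covers sites of Tinman and Bagpipe, was at 2 of 7 peaks (the Mef2 exon and bin), against 14.8% of pooled peaks and 13.2% of tiling windows. At bin this match overlapped an E-box match, from 42 to 36 bp before the summit. The forkhead site GTAAACA was at 1 of 7 (the Pal1 promoter), against 5.1% and 3.83%, the Mef2 consensus at 1 of 7 (downstream of zfh1), against 12.2% and 6.45%, and GAGAGAG, bound by GAGA factor, at 1 of 7 (twi), against 3.95% and 2.45%. Of the 5 peaks found in both replicates, the E-box CANNTG was at 3 and CAGTG at 2, both of these at zfh1. Over all 752 pooled peaks found in both replicates, CANNTG was at 61.0% and CAGTG at 53.7%.

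The wider network was read in 62 other genes of mesoderm, heart and muscle development. Of these, 29 (46.8%) had a pooled peak in their window, against 34.9% of all protein-coding genes, and their windows were longer than those of all genes, with a median of 34743.5 bp. Their 59 distinct peaks included none of the 7, and 42.4% of them overlapped a thresholded peak of both replicates. The 34.9% is not matched for window length, and the longest network window was 414149 bp. A peak was present at 39.6% of all genes with windows of 25 to 40 kb and at 47.4% of those over 40 kb. The 46.8% of the network genes lay close to these shares. The counts by list below rest on few genes each, and no share matched for length is given for them.

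Among the growth factor genes that act with htl, 2 of 3 had a peak: ths, a ligand, with an intronic peak of signal 125, and stumps, an adaptor downstream of the receptor, with a promoter peak of signal 122. Both were in both replicates, and pyr, the other ligand, had none. Cardiac genes had 7 of 11, led by the T-box genes Doc2 (signal 146) and mid (141), and by tup (114), a LIM-homeodomain gene. Each of these lay in both replicates. The Doc2 and mid summits were 6674 and 9237 bp from the gene, and the tup summit was nearer to CG10602. The only peak in the Doc3 window (signal 78.8) also lay in the window of its neighbour Doc2. Early mesoderm genes had 4 of 6, led by Six4 (211), dl (127) and nau (75.8), all of them summits outside the gene. The peaks in the Six4, dl and nau windows were nearer to start sites of tzn, Dif and CG10301. That at Six4 was in both replicates, that at dl in replicate 2 only and that at nau in neither.

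Visceral genes had 2 of 5, Fas3 (signal 100.5) and jeb (63.4), whose peak was nearer to CG8888 and in neither replicate. Muscle identity genes had 4 of 14, led by org-1 (329, a promoter peak 345 bp from the gene), Poxm (167) and Dr (97.1). Fusion genes had 5 of 8, led by mbc (206, nearer to tst), kirre (173, an intronic peak) and rols (91.5). Contractile genes had 4 of 12, led by the tropomyosin gene Tm1 (225, nearer to Cp190), Msp300 (152) and Mlc2 (116, nearer to Rsod). Blood cell genes had 1 of 3, gcm (81.6, nearer to brwl). The peaks at org-1, Poxm, mbc, kirre, Tm1, Msp300, Mlc2, Fas3 and gcm were in both replicates, that at Dr in replicate 1 only and that at rols in replicate 2 only.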

How the data were processed

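Anti-GFP ChIP-seq peak lists of 2 biological replicates and of their pool were read as deposited. They were made on dm6 with a control, per the labels; the aligner and caller are not named in the labels or deposited text files. The signal column is the value the authors deposited for each peak, and a −log10 column that the authors deposited in the ranked lists gives the global IDR, printed here as a percentage. No read counts were used and depth is unknown.

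Regions on the 6 main arms were placed on Ensembl release 115 genes and the Release 6 sequence, whose arm lengths hold every region. Coordinates are 1-based. Promoter means a summit at most 500 bp from a protein-coding start site, and replicate support an overlap of at least 1 bp. The 8 genes, the 62 network genes and the motifs were chosen with earlier results of these data known, so counts are set beside all genes or all peaks, with no test. All 8 genes and their peaks are named, and of each network list up to 3 genes with the strongest peak. Window, list, overlap and motif-width alternatives were tried. The counting and motif steps were tested on simulated data. Python 3.11.15, numpy 2.4.6, pandas 2.3.3 and matplotlib 3.10.9 were used.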

Additional observations from a re-analysis of the deposited data

How the results depend on the processing

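The number of the 8 genes with a pooled peak was 5, where 34.9% of all genes had one. It was 5 with a window of 5000 bp (24% of all genes), 6 with 20000 bp (50.1%), 4 by nearest start site (9.18%), 4 in the conservative list (31.1%), 4 with peaks above the median signal (22.8%) and 5 with an IDR of at most 5% (52.7%). The share of all genes thus moved far more than the count, and with an IDR of at most 5% it came near the 62.5% of the 8 genes. With the gene body alone the count was 3, where 5.76% of all genes had a peak. Those 3 genes have the longest bodies of the 8, and the share was not matched for body length. With peaks of both replicates the count was 3, where 18.9% of all genes had one. Leaving out each replicate in turn gave 3 to 4, where 27.3% and 24.1% had one. The 5% and both-replicate settings were chosen after seeing the data. The gene body alone held 3 of the 7 peaks and gave 14 network genes in place of 29. CAGTG lay at 1 of 7 summits within 50 bp, at 3 within 100 bp and at 4 within 200 bp. Its share over all pooled peaks is given for 100 bp only, so the other counts have no background beside them. The median rank of the 7 peaks was 576. It was 403 over the 6 peaks in the conservative list, which lacked the bin peak. Without replicate 1 it was 325.5 over 6 peaks, and without replicate 2 it was 213 over 5 peaks. These lists are shorter and hold different sets of peaks, so their medians cannot be compared directly. Replicate support was 5 of 7 or 4 of 7 under the other overlap rules. No paired analysis was possible because the series has 1 group. The 2 replicates, the 7 peaks and the unknown depth limit every count.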
